A study of Mus musculus with 22 samples.

Results

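The 8 genes described here encode transcription factors that hold mouse embryonic stem (ES) cells in the naive state: Esrrb, Nr5a2, Tfcp2l1, Nanog, Tbx3, Prdm14, Nr0b1 and Gbx2. They were chosen by name, 8 of the 18193 genes measured, and each was read from the brightest, by mean over the 22 arrays, of the probe sets that the platform annotation ties to that gene symbol alone. The cells were of the Rex1GFPd2 line, which carries a green fluorescent protein reporter at the Rex1 (Zfp42) locus, and were grown in serum-free Neurobasal/DMEMF12 medium with N2 and B27. All of them received PD0325901 (PD), which inhibits MEK, a kinase upstream of ERK, and all were transfected with siRNA and harvested 72 hours later.

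Arrays of 3 conditions were compared. The 2i control (7 arrays) received siControl#1 (4 arrays) or siControl#2 (3 arrays) and stayed in 2i medium, which adds to PD the GSK3 inhibitor CHIR99021 (CHIR). The PD-only control (7 arrays) received the same control siRNAs, with 4 and 3 arrays, and was moved 24 hours after transfection to medium with PD and without CHIR. The third condition was handled like the PD-only control but received siYAP/TAZ#1 or siYAP/TAZ#2, with 4 arrays each, which target the Hippo pathway coactivators YAP (gene Yap1) and TAZ (gene Wwtr1). YAP/TAZ siRNA in 2i was not analysed here, so every value with this siRNA is for medium without CHIR. All arrays come from 1 reporter line, and since the series text mentions a switch of medium for the PD-only conditions alone, the switch itself and the loss of CHIR cannot be told apart. By its title, the study concerns YAP and TAZ as parts of the beta-catenin destruction complex, and the comparisons set loss of YAP and TAZ beside inhibition of GSK3.

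As background, naive ES cells are kept self-renewing by a network of transcription factors that activate one another and themselves. GSK3 is part of the complex that marks beta-catenin for destruction. When GSK3 is inhibited, beta-catenin accumulates and relieves repression by the DNA-binding protein TCF7L1, whose targets in mouse ES cells include Esrrb, Nanog, Tfcp2l1 and Nr5a2. MEK inhibition acts on the same network from another side, by blocking the FGF and ERK signal that drives cells out of the naive state. When the inhibitors are withdrawn, expression of these factors falls as the cells move towards a formative and then a primed state.

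Promoter sequences were drawn from RefSeq (GRCm38.p6). Printed are a start with a motif match for each gene that had one, and the start of Gbx2, which had none. The start of Nr0b1 and the other starts of Esrrb, Nr5a2 and Nanog are not printed. The window runs from 250 bases before to 50 bases after an annotated start, 300 bases in all. It was found for 6 of the 8 genes, with 9 starts in all, and the table had no entry for Tbx3 and Prdm14. Motifs were searched on both strands and are in capitals: TCF/LEF (CTTTGAA, together with its variants CTTTGTT and also CTTTGAT), KLF (GGGTGTGG or GGGCGTGG), TEAD (GGAATG), STAT3 (TTCNNNGAA), ESRRB (AAGGTCA), NR5A2 (CAAGGCCA or CAAGGTCA, which contains the ESRRB letters), the octamer (ATGCAAAT) and SOX2 (CATTGTT). The octamer core ATGCAAA, which lies within the octamer, was added after the sequences had been seen. A motif on the other strand appears as its reverse complement.
Nr5a2, second start, chr1:136953581-136953880, minus strand: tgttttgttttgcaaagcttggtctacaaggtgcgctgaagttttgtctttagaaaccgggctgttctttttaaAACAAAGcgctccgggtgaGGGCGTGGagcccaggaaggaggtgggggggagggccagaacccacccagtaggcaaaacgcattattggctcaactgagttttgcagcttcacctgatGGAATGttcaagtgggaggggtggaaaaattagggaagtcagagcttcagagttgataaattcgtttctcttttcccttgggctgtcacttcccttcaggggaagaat
Tfcp2l1, chr1:118627695-118627994, plus strand: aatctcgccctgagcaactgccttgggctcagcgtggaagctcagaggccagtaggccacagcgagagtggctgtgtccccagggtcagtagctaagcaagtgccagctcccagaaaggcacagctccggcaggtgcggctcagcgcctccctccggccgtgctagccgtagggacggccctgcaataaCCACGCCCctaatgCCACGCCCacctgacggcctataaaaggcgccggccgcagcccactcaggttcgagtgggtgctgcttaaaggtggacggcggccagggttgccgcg
Esrrb, first start, chr12:86360867-86361166, plus strand: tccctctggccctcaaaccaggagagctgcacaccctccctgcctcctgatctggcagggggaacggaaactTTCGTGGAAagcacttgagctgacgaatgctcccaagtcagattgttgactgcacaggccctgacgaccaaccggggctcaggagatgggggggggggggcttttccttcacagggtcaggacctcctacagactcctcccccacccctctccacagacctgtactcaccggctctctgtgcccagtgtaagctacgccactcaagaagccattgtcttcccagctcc
Nanog, first start, chr6:122707239-122707538, plus strand: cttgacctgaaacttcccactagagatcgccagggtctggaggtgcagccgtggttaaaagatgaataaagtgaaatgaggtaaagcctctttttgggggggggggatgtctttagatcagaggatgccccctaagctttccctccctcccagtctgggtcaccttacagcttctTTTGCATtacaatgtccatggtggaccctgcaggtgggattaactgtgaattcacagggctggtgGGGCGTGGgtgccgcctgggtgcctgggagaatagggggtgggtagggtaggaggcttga
Gbx2, chr1:89931127-89931426, minus strand: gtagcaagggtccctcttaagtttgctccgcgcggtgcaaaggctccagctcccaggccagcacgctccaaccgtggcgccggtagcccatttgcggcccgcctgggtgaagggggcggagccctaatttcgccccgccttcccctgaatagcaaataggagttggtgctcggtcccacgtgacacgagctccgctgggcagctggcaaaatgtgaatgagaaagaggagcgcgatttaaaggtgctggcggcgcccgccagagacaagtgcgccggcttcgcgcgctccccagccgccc

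The second Nr5a2 start had a TCF/LEF match 176 bases before it, a KLF match at 157 and a TEAD match at 58. Tfcp2l1 had a pair of KLF matches, 61 and 47 bases before its start. Esrrb had a STAT3 match 178 bases before its first start, and Nanog had a KLF match 10 bases before its first start and the octamer core 75 bases before it. None of these letters were in the Gbx2 window. Of all 32851 promoters in the table, 13.9% held a TCF/LEF match, 14.7% TEAD, 8.58% KLF, 8.30% STAT3 and 4.63% the octamer core. Among the 9 starts of the 8 genes, 1 held a TCF/LEF match, 1 TEAD, 4 KLF, 1 STAT3 and 2 the octamer core. The windows of the 2 Nanog starts overlap and hold the same KLF and octamer core letters. The ESRRB letters (4.72% of all promoters), NR5A2 (3.92%), SOX2 (3.78%) and the full octamer (1.74%) were in none of the 9 windows. A match is a run of letters and not a measured binding site. Only the letters listed were searched, so a window without a match can still hold a variant of that motif.

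The values are log2 expression from RMA (robust multi-array average), on which a difference of 1 is a 2-fold difference, and levels of different genes cannot be compared because each probe set has its own brightness. Differences were fitted with limma over all 18193 genes, and a gene was called at a Benjamini-Hochberg adjusted p below 0.05. Replicates are called biological in the labels, which do not name separate days, so p-values measure the spread between these arrays, whose number limits the precision. Yap1 lay between 9.67 and 9.91 with YAP/TAZ siRNA (median 9.76), between 11 and 11.07 in PD-only control (median 11.05) and between 10.81 and 10.95 in 2i control (median 10.89). Relative to PD-only control, Yap1 with the siRNA fell by 1.27 ± 0.03 (log2, SE; limma adjusted p = 2.61e-18) and Wwtr1 fell by 1.04 ± 0.03 (adjusted p = 5.32e-17). Within a condition the lowest correlation between arrays was 0.9977. The Actb 3′ minus 5′ control value, a sign of RNA quality, was lower in PD-only control (0.66 to 0.75) than in either 2i control (0.87 to 1.19) or YAP/TAZ siRNA cells (0.88 to 1.07), so it moved with the same contrast as the 8 genes. With it as a covariate 7 of the 8 kept their calls and direction in 2i against PD-only control, and all 8 did so with YAP/TAZ siRNA against PD-only control. The ranges of PD-only control and the other conditions did not overlap, so the covariate was fitted on the small spread within groups. This fit therefore cannot tell RNA quality and condition apart. PD-only control also stood apart in the mean Gapdh 3′ minus 5′ value (-0.07, against -0.01 for 2i control and -0.02 for YAP/TAZ siRNA) and in the mean of the array medians (5.55, against 5.52 for both others). Poly-A spike-in controls averaged 8.85 for 2i control, 8.43 for PD-only control and 8.33 for YAP/TAZ siRNA. The part of these last 3 measures in the results was not tested.

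All 8 factors were higher in 2i control than in PD-only control, by a log2 difference between 0.34 (Gbx2) and 1.66 (Nr5a2). All 8 were also higher with YAP/TAZ siRNA than in PD-only control, by between 0.29 (Nanog) and 1.60 (Nr5a2). The 2 comparisons share the PD-only control arrays, so a low or high value there moves both. The background of these calls was wide: limma called 58% of all genes in either direction and 31.3% higher for 2i control, and 61.8% in either direction and 35.5% higher for YAP/TAZ siRNA. A rise of at least 1 was rarer, at 1.69% and 1.9% of genes. Esrrb, Nr5a2 and Tfcp2l1 reached it in 2i control, and Nr5a2, Tfcp2l1 and Gbx2 with YAP/TAZ siRNA. The median over the 8 was 0.82 in 2i control against a median of 0.04 over all genes, and 0.70 with YAP/TAZ siRNA against 0.06. RNA of whole cultures was measured, so fewer cells with a factor and less of its RNA per cell cannot be told apart.

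**Figure D1:**
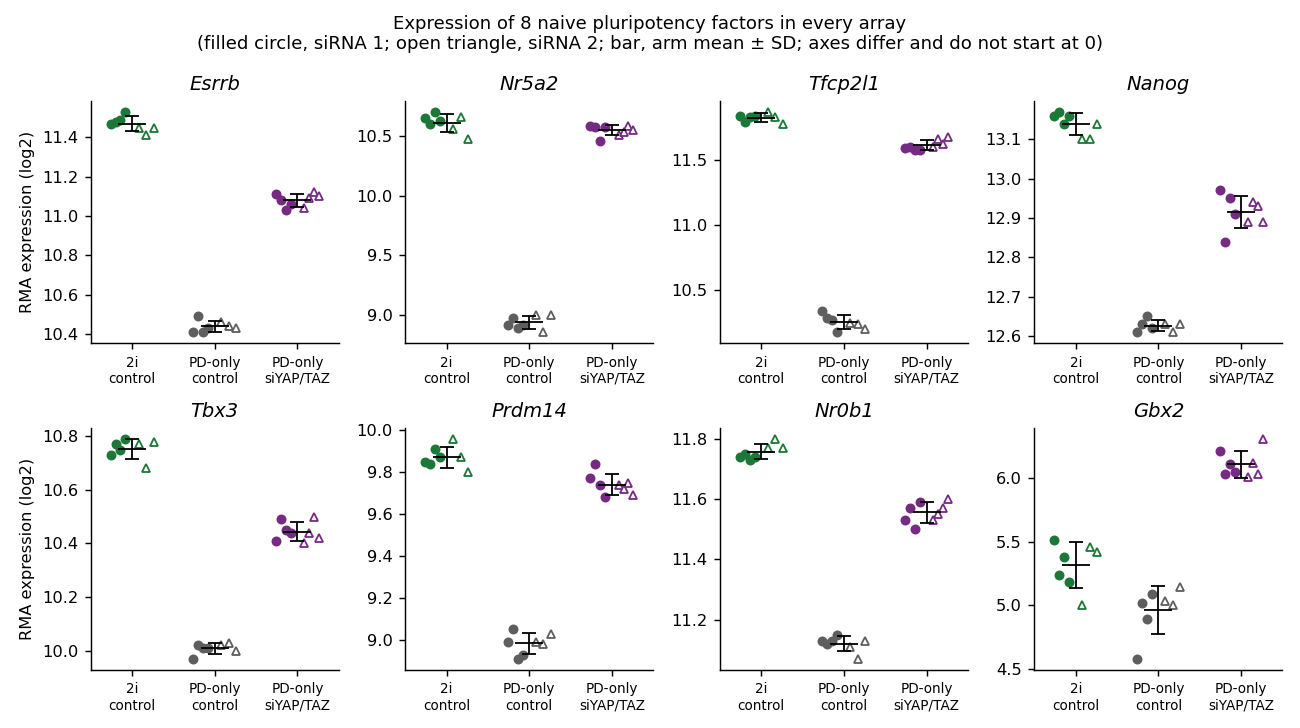
RMA expression (log2) of each of the 8 genes in every array, by condition; filled circles are siRNA 1, open triangles siRNA 2, and bars the mean ± SD of the condition (n = 7, 7 and 8). The YAP/TAZ siRNA arrays lie above every PD-only control array for all 8 genes, and above the 2i control arrays only for Gbx2; each axis has its own range and none starts at 0.

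Of the 8 factors, 3 are nuclear receptors. Esrrb, an orphan receptor of the oestrogen-receptor-related group, is a target of TCF7L1 that can stand in for GSK3 inhibition when it is expressed from a transgene in mouse ES cells. The gene lies at chr12:86361117-86521628 on build GRCm38.p6, the build of all positions given here. In 2i control its level ran from 11.41 to 11.53 with a median of 11.47, in PD-only control from 10.41 to 10.49 with a median of 10.43, and with YAP/TAZ siRNA from 11.03 to 11.12 with a median of 11.09. The 3 conditions did not overlap, and the YAP/TAZ siRNA arrays lay between the controls. Esrrb was 1.03 ± 0.02 higher in 2i control than in PD-only control, a 2.04-fold difference (adjusted p = 4.71e-19), and 0.64 ± 0.02 or 1.56-fold higher with YAP/TAZ siRNA (adjusted p = 5.6e-16). Against 2i control it was lower with YAP/TAZ siRNA by 0.39 (log2 difference -0.39 ± 0.02, adjusted p = 7.04e-12), at 76.5% of the 2i level. That was the lowest such percentage among the 8 genes.

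Nr5a2, the liver receptor homologue 1, is an orphan nuclear receptor that activates Pou5f1 through the Pou5f1 promoter and proximal enhancer in mouse. It lies at chr1:136842562-136960448. With siControl#1 in 2i its 4 arrays read 10.65, 10.60, 10.70 and 10.62, and with siControl#2 the 3 arrays read 10.56, 10.66 and 10.47. In PD-only control the arrays read 8.92, 8.98, 8.89 and 8.92 with siControl#1, and 9.0, 8.86 and 9.0 with siControl#2. With YAP/TAZ siRNA they read 10.58, 10.57, 10.46 and 10.57 for mix 1, and 10.51, 10.53, 10.58 and 10.55 for mix 2. Every PD-only control array was far below the rest, while the YAP/TAZ siRNA arrays lay within or just below the range of 2i control. The fitted difference to PD-only control was 1.66 ± 0.03 for 2i control (3.17-fold, adjusted p = 9.46e-20) and 1.60 ± 0.03 for YAP/TAZ siRNA (3.04-fold, adjusted p = 8.55e-20). They ranked 93 and 108 from the highest of all 18193 genes. Between YAP/TAZ siRNA and 2i control the difference was -0.06 ± 0.03 and was not called (adjusted p = 0.143). Its 95% interval ran from -0.13 to 0.01, so on this probe set the level with YAP/TAZ siRNA stood at 96.0% of 2i. Nr5a2 was called lower against 2i with control siRNA 1 alone (-0.10, adjusted p = 0.0167) and without siControl#2 replicate C in 2i (-0.08, adjusted p = 0.0382).

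Nr0b1 (Dax1) is an atypical nuclear receptor without the usual DNA-binding domain that binds other receptors, Nr5a2 among them, and acts as a corepressor. It lies at chrX:86191775-86195947. Its level was 11.73 to 11.80 (median 11.75) in 2i control, 11.07 to 11.15 (median 11.13) in PD-only control and 11.50 to 11.60 (median 11.56) with YAP/TAZ siRNA. As for Esrrb, the 3 conditions did not overlap and the YAP/TAZ siRNA arrays were between the controls. Nr0b1 was 0.64 ± 0.02 higher in 2i control (adjusted p = 3.86e-16) and 0.44 ± 0.02 higher with YAP/TAZ siRNA (adjusted p = 1.1e-13) than in PD-only control. It reached 86.8% of its 2i level with YAP/TAZ siRNA (log2 difference -0.21 ± 0.02, adjusted p = 3.62e-08).

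Tfcp2l1, a factor of the CP2 family that acts downstream of LIF and STAT3 in mouse ES cells, was the gene next to Nr5a2 in size of response. It lies at chr1:118627923-118685168. The 2i control arrays ran from 11.78 to 11.87 (median 11.83), the PD-only control arrays from 10.18 to 10.34 (median 10.25), and the YAP/TAZ siRNA arrays from 11.58 to 11.68 (median 11.60). No 2 conditions overlapped, and the YAP/TAZ siRNA arrays were much nearer to 2i control than to PD-only control. The log2 difference to PD-only control was 1.58 ± 0.03 in 2i control (2.98-fold, adjusted p = 4.06e-21) and 1.36 ± 0.03 with YAP/TAZ siRNA (2.57-fold, adjusted p = 1.97e-20). YAP/TAZ siRNA cells held 86.3% of the 2i level (-0.21 ± 0.03, adjusted p = 3.7e-07).

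Nanog, the homeodomain protein at the centre of the network, is expressed in naive cells and unevenly in cultures without inhibitors. It lies at chr6:122707489-122714633. Levels of 13.10 to 13.17 in 2i control (median 13.14), 12.61 to 12.65 in PD-only control (median 12.63) and 12.84 to 12.97 with YAP/TAZ siRNA (median 12.92) were measured. The 3 ranges were separate, with the lowest YAP/TAZ siRNA array still above the highest PD-only control array. The differences were the smallest among the 7 genes other than Gbx2: 0.51 ± 0.02 in 2i control (1.42-fold, adjusted p = 5.19e-14) and 0.29 ± 0.02 with YAP/TAZ siRNA (1.22-fold, adjusted p = 2.59e-10), both against PD-only control. Nanog was at 85.8% of its 2i level with YAP/TAZ siRNA (-0.22 ± 0.02, adjusted p = 3.15e-08).

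Tbx3, a T-box factor that sustains Nanog expression in mouse ES cells, lies at chr5:119670534-119684724. Its values were 10.68 to 10.79 (median 10.77) in 2i control, 9.97 to 10.03 (median 10.01) in PD-only control and 10.40 to 10.50 (median 10.44) with YAP/TAZ siRNA. Here too the YAP/TAZ siRNA arrays formed a band of their own between the controls. Tbx3 was 0.74 ± 0.02 higher in 2i control (1.67-fold, adjusted p = 2.68e-16) and 0.43 ± 0.02 higher with YAP/TAZ siRNA (1.35-fold, adjusted p = 9.45e-13) than in PD-only control. Its level with YAP/TAZ siRNA was 80.8% of that in 2i (-0.31 ± 0.02, adjusted p = 5.33e-10), the second lowest percentage after Esrrb.

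Prdm14, a PR-domain zinc finger protein, represses FGF receptors and de novo DNA methyltransferases in naive cells. It lies at chr1:13113428-13127163. In 2i control it ran from 9.80 to 9.96 (median 9.87), in PD-only control from 8.91 to 9.05 (median 8.99), and with YAP/TAZ siRNA from 9.68 to 9.84 (median 9.74). The PD-only control arrays were apart from all others, while the top of the YAP/TAZ siRNA range overlapped the bottom of the 2i range. Prdm14 was 0.89 ± 0.03 higher in 2i control (1.85-fold, adjusted p = 1.07e-15) and 0.76 ± 0.03 higher with YAP/TAZ siRNA (1.69-fold, adjusted p = 7.14e-15) than in PD-only control. The remaining difference to 2i was small but called, at -0.13 ± 0.03 (adjusted p = 0.00097) or 91.3% of the 2i level.

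Gbx2, a homeodomain factor and target of LIF and STAT3 in mouse ES cells, had another order of levels. It lies at chr1:89927962-89931176, and its probe set was dim: the mean of each condition was below 6.64, the median of the means of all genes. In 2i control the arrays read 5.51, 5.24, 5.38 and 5.18 with siControl#1 and 5.0, 5.46 and 5.42 with siControl#2. In PD-only control they read 4.58, 5.02, 4.89 and 5.09 with siControl#1 and 5.03, 5.0 and 5.14 with siControl#2. With YAP/TAZ siRNA they read 6.21, 6.03, 6.11 and 6.05 for mix 1 and 6.01, 6.12, 6.03 and 6.31 for mix 2. The 8 YAP/TAZ siRNA arrays were above all 14 control arrays, and the control conditions overlapped. Gbx2 was 1.13 ± 0.08 higher with YAP/TAZ siRNA than in PD-only control (2.19-fold, adjusted p = 1.03e-10) and 0.80 ± 0.08 higher than in 2i control (1.74-fold, adjusted p = 4.16e-08). Its excess in 2i over PD-only control was 0.34 ± 0.08 (adjusted p = 0.00168). That call was lost with the Actb covariate (0.17, adjusted p = 0.424) and with control siRNA 2 alone (0.24, adjusted p = 0.0984).

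**Figure D2:**
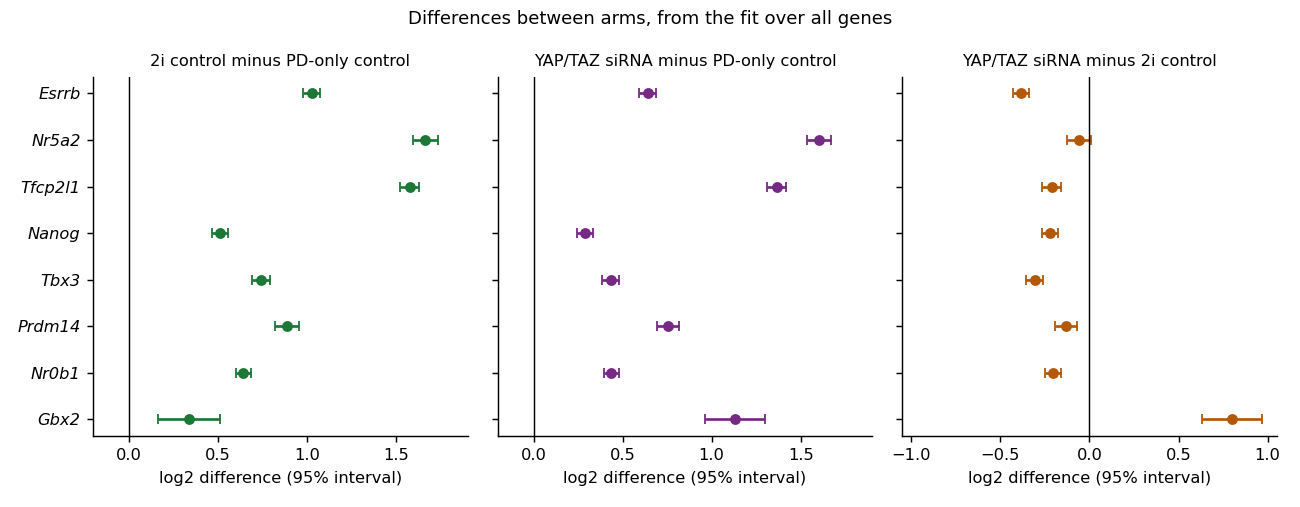
Log2 differences of the 8 genes between conditions (points) with their 95% intervals, from the limma fit over all genes; the vertical line marks no difference. Against PD-only control all points lie to the right of 0, and for YAP/TAZ siRNA minus 2i control only Gbx2 lies clearly to the right, at 0.80, while the interval of Nr5a2 includes 0.

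The ranges of 2i control lay wholly above those of PD-only control for 7 of the 8 genes, the exception being Gbx2, against 18.7% of all genes. With YAP/TAZ siRNA all 8 lay wholly above PD-only control, against 21.1% of all genes. Set directly against 2i control, 6 genes were lower with YAP/TAZ siRNA (Esrrb, Tfcp2l1, Nanog, Tbx3, Prdm14 and Nr0b1), where 22.8% of all genes were called lower, and Gbx2 was higher, where 25.5% were called higher and 48.3% in either direction. None of the 8 was called with a rise of at least 1 over 2i control, a rise that 0.632% of genes showed. Of these 6, all but Prdm14 lay wholly below the 2i arrays, as did 13.3% of all genes, and Gbx2 lay wholly above them, as did 14.9%. The order of 2i control above YAP/TAZ siRNA above PD-only control, with each step called, was therefore measured for 6 of the 8 genes, against 5.98% or 1088 of all genes. Nr5a2 had no called step between YAP/TAZ siRNA and 2i control, and Gbx2 had YAP/TAZ siRNA at the top.

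**Figure D3:**
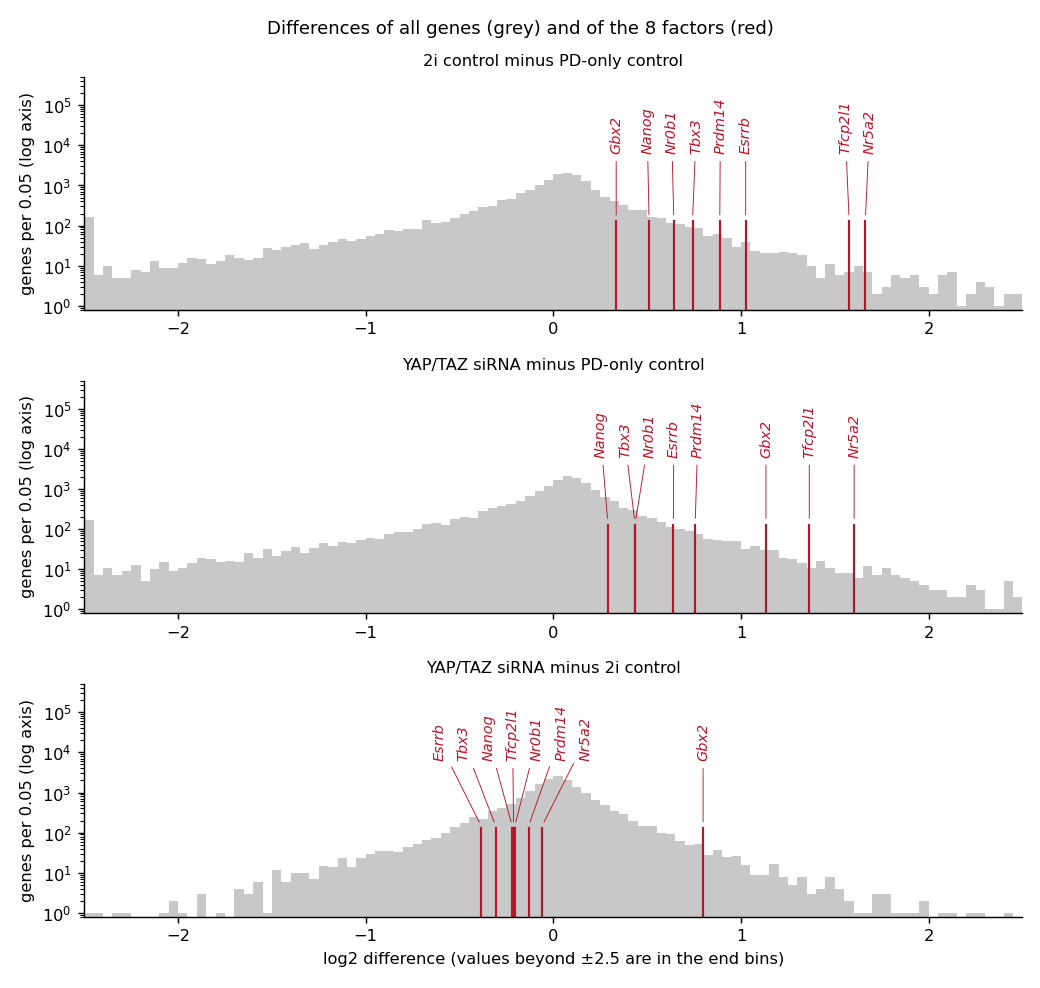
Log2 differences of all 18193 genes in each comparison (grey, log axis of genes per bin) with the 8 factors marked in red. The factors lie in the right part of both distributions against PD-only control, where Nr5a2 ranks 93 and 108 from the top, and left of 0 or close to it against 2i control, except for Gbx2.

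Differences between siRNAs of one kind were small for the 8 genes. Control siRNA 2 minus control siRNA 1 lay between -0.08 and 0.04 over the 8 genes in 2i, and between -0.04 and 0.16 in PD-only medium. YAP/TAZ mix 2 minus mix 1 lay between -0.03 and 0.05. The difference between 2i and PD-only medium with control siRNA 2, minus that with control siRNA 1, ran from -0.20 to 0.07. Limma called 0 of 18193 genes (0%) in each of these 4 contrasts, and 1450, 769, 649 and 949 genes had an unadjusted p below 0.05, with none of the 8 factors among them. With a trended and robust variance 2, 1, 0 and 0 genes were called, again none of the 8. Missing the threshold does not show that the siRNAs acted alike, since these contrasts rest on groups of 3 or 4 arrays.

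Several of the genes were read by more than 1 probe set, 19 in all for the 8 genes. The other probe sets of Esrrb gave 0.84 and 0.80 for 2i control and 0.51 and 0.59 for YAP/TAZ siRNA against PD-only control, and both were called lower with YAP/TAZ siRNA than in 2i (-0.32 and -0.21). For Nr5a2, 3 probe sets were bright. The 2 not chosen gave 1.92 and 1.54 for 2i control, and 1.84 and 1.64 for YAP/TAZ siRNA. They disagreed on the step between YAP/TAZ siRNA and 2i: the one with a mean of 9.87 was called lower (-0.08, adjusted p = 0.0159 over all probe sets) and the one with a mean of 8.21 higher (0.10, adjusted p = 0.0359). The sign of that small difference thus depended on the probe set. The remaining, dim Nr5a2 probe set was 0.47 and 0.56 higher in the same conditions.

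The second bright Tbx3 probe set, with a mean of 9.69, showed larger differences than the one chosen: 1.38 for 2i control and 0.94 for YAP/TAZ siRNA against PD-only control. Its step from 2i to YAP/TAZ siRNA was -0.44, in the same direction as the chosen one. The other 3 Tbx3 probe sets had means of 5.24, 4.45 and 2.94. The brightest and the dimmest of them were called higher in 2i control (0.53 and 0.23), and none of the 3 was called with YAP/TAZ siRNA (0.15 for the brightest, adjusted p = 0.0647). Tfcp2l1 had 2 further probe sets with means of 3.16 and 2.8, among the dimmest values in the data, where its differences to PD-only control were between 0.06 and 0.16. Averaging all 3 probe sets of Tfcp2l1 gave 0.62 for 2i control and 0.51 for YAP/TAZ siRNA, less than the values of the chosen probe set. Nanog, Prdm14, Nr0b1 and Gbx2 each rested on 1 probe set.

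**Figure D4:**
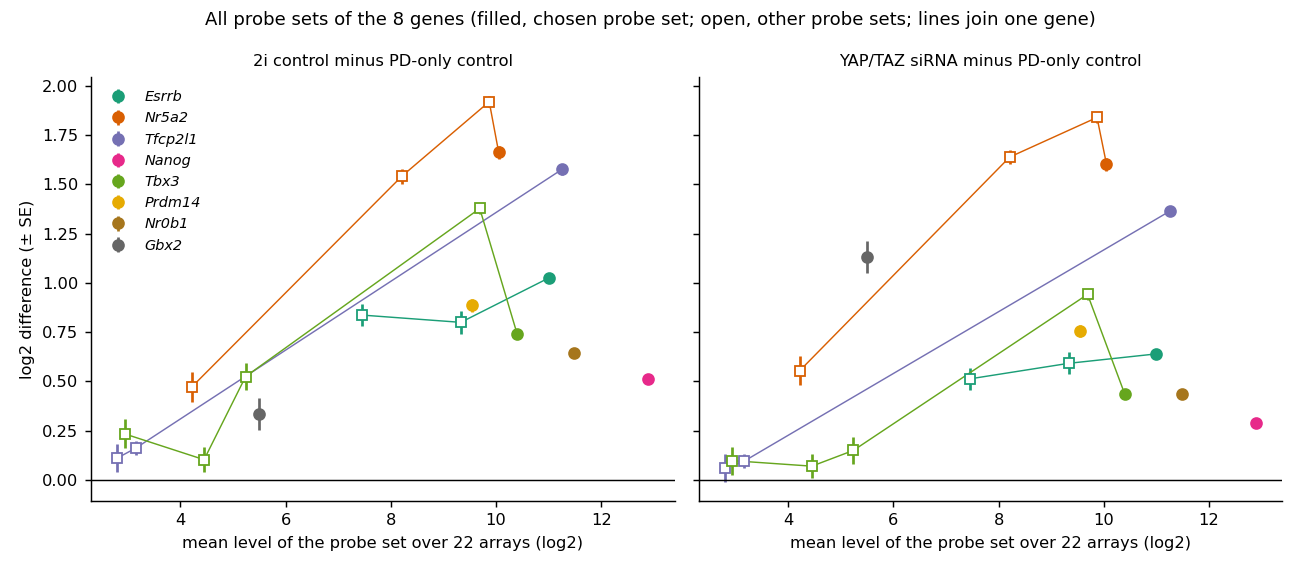
Log2 difference (± SE) of each of the 19 probe sets of the 8 genes against its mean level over the 22 arrays, in the 2 comparisons with PD-only control; filled symbols are the chosen probe sets, open ones the others, and lines join the probe sets of 1 gene. Probe sets with means below 5 lie near 0 for Tfcp2l1 and Tbx3, while the 3 bright probe sets of Nr5a2 lie between 1.54 and 1.92 in 2i control.

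To find genes with the most similar profile, each profile was centred on its PD-only control mean, and the root mean square (RMS) difference on the log2 scale over the 22 arrays was taken, for the 4 factors that reached a log2 difference of 1. Candidates were limited to genes with a mean of at least 6.64, the median of all genes, in some condition. Gbx2 itself was dimmer than that, so genes as dim as Gbx2 were not searched. Nearest to Esrrb were Bcat1, which encodes the cytosolic branched-chain aminotransferase (RMS 0.053), and 1700019D03Rik (0.069). Bcat1 was 1.04 higher in 2i control and 0.71 higher with YAP/TAZ siRNA, as differences of array means. Gjc1, which encodes a gap junction protein, was nearest to Nr5a2 (RMS 0.067, with differences of 1.62 and 1.56), followed by the kinesin gene Kif5a (0.098). Tfcp2l1 was closest to the actin nucleator gene Cobl (0.090) and the kinase gene Ripk3 (0.107). Lpar1, which encodes a receptor for lysophosphatidic acid, was nearest to Gbx2 (0.141), with differences of 0.38 for 2i control and 1.19 for YAP/TAZ siRNA, followed by 2500002B13Rik (0.149). Among the 8 genes themselves, Tbx3 and Nr0b1 were closest (RMS 0.074), then Esrrb and Prdm14 (0.118), and Nr5a2 and Nanog were farthest apart (1.03).

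Other genes of the naive state moved less evenly than the 8 factors. Of 16 measured, 13 were called higher in 2i control than in PD-only control (31.3% of all genes were) and 1 lower (26.7% of all genes), the latter being Dppa4 (-0.10), with a median of 0.34. With YAP/TAZ siRNA 10 were higher (35.5% of all genes) and 3 lower (26.3%) than in PD-only control, with a median of 0.17. The Ets factor gene Spic was 2.19 ± 0.05 higher in 2i control (adjusted p = 2.27e-18) and 2.47 ± 0.05 higher with YAP/TAZ siRNA (adjusted p = 1.55e-19). Klf2, a Krüppel-like factor gene, had values of 0.90 ± 0.03 and 0.61 ± 0.02 (adjusted p = 2.11e-17 and 6.32e-15). Tcl1, a coactivator of AKT signalling, had 0.97 ± 0.03 and 0.87 ± 0.03. Dppa3, also called Stella, was 0.35 ± 0.04 higher in 2i control and 1.04 ± 0.03 higher with YAP/TAZ siRNA, where it exceeded the 2i level by 0.69 ± 0.03 (adjusted p = 1.11e-12). Its order of conditions was that of Gbx2, as it was for Spic, which exceeded its 2i level by 0.28 ± 0.05 (adjusted p = 8.77e-05).

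The Krüppel-like factor genes differed from one another. Klf4, a STAT3 target, was 0.08 ± 0.03 higher in 2i control (adjusted p = 0.0174) but fell with YAP/TAZ siRNA by 0.87 ± 0.03 against PD-only control (adjusted p = 3.4e-17). Klf5 was 0.16 ± 0.04 higher in 2i control and fell with the siRNA by 0.28 ± 0.04 (adjusted p = 6.46e-06). None of the 8 factors fell below PD-only control with YAP/TAZ siRNA. Zfp42 (Rex1), the gene whose locus carries the reporter, was 0.34 ± 0.03 higher in 2i control (adjusted p = 1.14e-09) and 0.06 ± 0.03 with YAP/TAZ siRNA, which was not called (adjusted p = 0.051). Called differences in both comparisons were also measured for Dppa2 (0.34 and 0.46), Pecam1 (0.79 and 0.44), Tet2 (0.55 and 0.16) and Jam2 (0.64 and 0.17). Sox15 was called only with YAP/TAZ siRNA (0.80; 0.11 in 2i control), and was called higher there than in 2i (0.69). Fgf4 (0.12 and 0.02), Dppa5a (0.07 and 0.02) and Fbxo15 (-0.03 and 0.06) stayed within 0.12 of PD-only control.

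Genes of general pluripotency, which naive and primed cells share, had a smaller median: 0.12 for 2i control and 0.02 for YAP/TAZ siRNA. Of the 11, 7 were higher and 4 lower in 2i control, against 31.3% and 26.7% of all genes, and 5 were higher and 5 lower with YAP/TAZ siRNA, against 35.5% and 26.3%. The largest difference in both comparisons was negative: Lin28a, an RNA-binding protein gene, had -1.28 ± 0.13 and -0.80 ± 0.12 (adjusted p = 2.78e-08 and 9.43e-06). Utf1 was also lower, with -0.47 ± 0.04 and -0.28 ± 0.04. L1td1 was 0.41 and 0.45 higher. Pou5f1 (Oct4) was 0.43 ± 0.03 higher in both conditions (adjusted p = 3.53e-11 and 1.32e-11), and Sox2 was 0.36 ± 0.03 and 0.07 ± 0.03 higher (adjusted p = 2.87e-10 and 0.0339). Of 14 genes of the formative and primed states, 9 were lower in 2i control, where 26.7% of all genes were, and 10 were lower with YAP/TAZ siRNA, where 26.3% were. Their medians were -0.52 and -0.69. Fgf5, the growth factor gene used to mark exit from the naive state, had log2 differences of -5.40 ± 0.13 and -4.39 ± 0.12. The claudin gene Cldn6 had -2.09 and -2.38, the zinc finger gene Sall2 -1.78 and -2.01, the POU factor gene Pou3f1 -1.90 and -1.74, the growth factor gene Fgf15 -1.86 and -0.83, and the homeobox gene Otx2 -1.10 and -1.24. Lef1 (0.51) and Zic2 (0.79) were among the 4 genes of this list that were higher with YAP/TAZ siRNA.

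**Figure D5:**
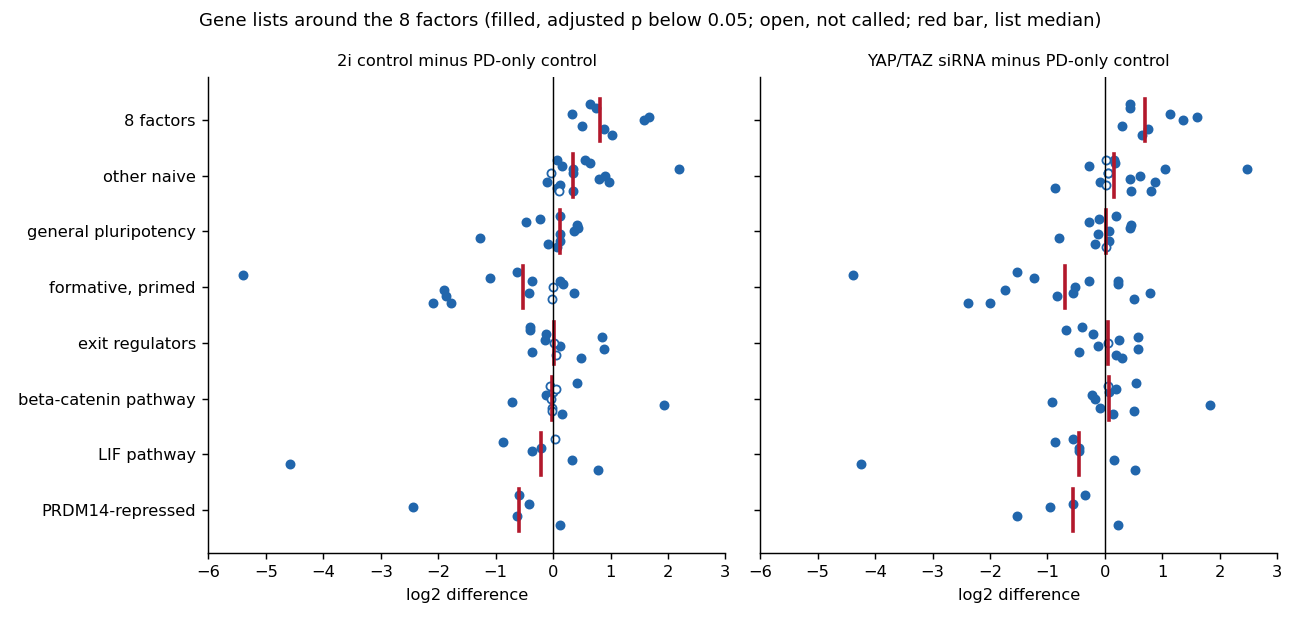
Log2 difference of each gene in lists of the naive network and its inputs, in the 2 comparisons with PD-only control; filled points were called, open ones were not, and red bars are list medians. The 8 factors lie to the right of 0 in both panels (medians 0.82 and 0.70), and the formative and primed list lies mostly to the left (medians -0.52 and -0.69).

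Among the genes that act upstream of these factors, Axin2, a feedback target of beta-catenin, was 1.94 ± 0.05 higher in 2i control and 1.82 ± 0.04 higher with YAP/TAZ siRNA. Most other genes of the beta-catenin pathway moved by less. Of 11 measured, 3 were higher, 2 lower and 6 not called in 2i control, no larger a share than the 31.3% higher and 26.7% lower over all genes. Among YAP/TAZ siRNA cells, 6 were higher, 4 lower and 1 not called, against 35.5% higher and 26.3% lower over all genes. Tcf7l1, the repressor of several of the 8 factors, was not called in 2i control (0.05 ± 0.03, adjusted p = 0.116) and was 0.19 ± 0.03 higher with YAP/TAZ siRNA (adjusted p = 2.65e-06). RNA for beta-catenin itself, Ctnnb1, differed by -0.03 and -0.08, the latter called (adjusted p = 0.00141). Tcf7l2 was lower in both (-0.71 and -0.92), while Btrc, a subunit of the ligase that ubiquitinates beta-catenin, was higher (0.42 and 0.53). Lef1 was not called in 2i control (-0.02), and Apc, Gsk3b, Csnk1a1, Axin1 and Gsk3a had differences between -0.23 and 0.15 in both comparisons.

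Genes that regulate exit from the naive state, not all of them in the same direction, were called both higher and lower. Of 11 measured, 4 were higher and 5 lower in 2i control (31.3% and 26.7% of all genes), and 5 were higher and 5 lower with YAP/TAZ siRNA (35.5% and 26.3%). Flcn (0.85 and 0.57) and its partner Fnip1 (0.89 and 0.58), which keep the transcription factor TFE3 out of the nucleus, were higher, as was the Ets factor gene Etv5 (0.49 and 0.29). Rbpj, the DNA-binding partner of Notch (-0.40 and -0.68), Ptpn11 (-0.38 and -0.45), Folr1 (-0.41 and -0.40) and Tfe3 (-0.12 and -0.21) were lower. Mbd3 had -0.14 and 0.24, Zfp281 0.12 and -0.13, and Rest 0.02 and 0.05, the last not called in either comparison.

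Of 7 genes of the LIF pathway, through which STAT3 activates Tfcp2l1, Klf4 and Gbx2, 4 were lower in 2i control and 5 were in YAP/TAZ siRNA cells, against 26.7% and 26.3% of all genes. Socs3, a STAT3 target that feeds back on the receptor, had log2 differences of -4.58 ± 0.08 and -4.24 ± 0.08, and Stat3 had -0.87 ± 0.04 in both. The receptor subunit gene Il6st was higher (0.78 and 0.53), and Lifr had 0.03 in 2i control, not called, and -0.55 with YAP/TAZ siRNA. Of 5 FGF receptor and de novo DNA methyltransferase genes listed as repressed by Prdm14, 4 were lower in both conditions, where 26.7% and 26.3% of all genes were: Dnmt3b (-0.41 and -0.55), Dnmt3l (-0.63 and -1.54), Fgfr1 (-0.59 and -0.36) and Fgfr2 (-2.43 and -0.96). Dnmt3a was higher (0.13 and 0.24). Dnmt3a, Dnmt3b and Dnmt3l also belong to the formative and primed list above, and some other genes are shared between lists, so list counts are not independent. Fgfr2 differed most between the conditions, being 1.48 ± 0.04 higher with YAP/TAZ siRNA than in 2i, while Dnmt3l was 0.90 ± 0.05 lower.

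Markers of the labelled cell type were bright: the 6 ES cell markers, summed on the linear scale, ran from 52481 to 54454 in 2i control, 48558 to 49600 in PD-only control and 50705 to 51488 with YAP/TAZ siRNA. Utf1, Sall4 (-0.24 and -0.10) and Tdgf1 (-0.10 and -0.11) of these were lower than in PD-only control in both other conditions. Sums for primitive endoderm, trophoblast and fibroblast markers were highest in PD-only control and did not overlap the other conditions, so they moved with the same contrasts as the 8 factors. Neural and mesendoderm sums were also higher in PD-only control than in 2i control, without overlap, but not higher than with YAP/TAZ siRNA without overlap. A linear sum follows its brightest probe sets and is no measure of a cell type. The brightest fibroblast gene was Fn1 (mean log2 12.70 in 2i control, 12.02 in PD-only control), which went against its sum. In PD-only control Krt8 (13.43) and Krt18 (13.54) made up most of the trophoblast sum. The summed 13 primitive endoderm markers were 1275 to 1354, 6799 to 7291 and 1436 to 1549 in the same order of conditions, and 10 and 9 of them were called lower against PD-only control (26.7% and 26.3% of all genes), although Gata4, Sox17 and Sox7 were called in neither. The largest were Col4a2 (-3.75 and -4.21), Lrp2 (-3.50 and -3.54), Col4a1 (-3.32 and -3.83) and Dab2 (-3.05 and -3.57). The 12 trophoblast markers summed to 1171 to 1246, 24481 to 25538 and 1906 to 2200, led by the keratin genes Krt8 (-6.67 and -5.80), Krt18 (-6.04 and -5.65) and Krt7 (-4.57 and -4.33). Eomes had -1.10 and -0.23 and Tfap2c -0.74 and 0.71, while Elf5 was not called and Cdx2 was higher in both (0.55 and 1.07). The 10 fibroblast markers summed to 7796 to 8707, 9686 to 10330 and 8046 to 8420. Col1a2 (-4.56 and -4.50), Col1a1 (-4.01 and -3.95), Postn (-3.17 and -3.02), Vim (-1.61 and -0.65) and Col3a1 (-1.53 and -1.88) were lower, Thy1 had -0.52 and 0.08, the latter not called, and Fn1 was higher (0.68 and 0.39). The 12 neural markers summed to 578 to 640, 813 to 848 and 951 to 997, and the 9 mesendoderm markers to 220 to 256, 330 to 382 and 307 to 365. The neural sum was thus highest with YAP/TAZ siRNA, where Tubb3 (0.79) and En2 (0.93) were higher and Map2 (-1.27) and Nes (-0.31) lower than in PD-only control and Pax6 was not called (-0.06). The mesendoderm sums with YAP/TAZ siRNA overlapped those of PD-only control, and in that comparison Foxa2 had -0.81, Evx1 0.56, Wnt3 0.43, Gsc 0.34 and Lhx1 0.06, the last not called. RMA gives no zero and no detection call, so none of these can be said to be absent, and their part in the differences of the 8 factors was not tested.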

How the data were processed

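Biotin-labelled cRNA was made from total RNA with an Affymetrix 3′ IVT kit and read on 1-colour arrays, per the labels' protocols. The authors deposited log2 values per probe set, made with RMA per the submitters' processing notes; version and settings are not stated in the labels. The log2 scale was inferred from the tool and from the range of 2.09 to 14.91. Values had 2 decimals and none were missing, and no 2 arrays were identical. RMA usually equalises the distributions of arrays, which hides a change in total RNA, and background compresses differences of dim probe sets.

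Of 45101 probe sets, 34945 had 1 gene symbol, 932 several and 9160 none listed, besides 64 control probe sets. Probe sets with 1 symbol gave 18193 genes, each read from its probe set with the highest mean. Group means (6 combinations of medium and siRNA) were estimated by limma 3.58.1 under R 4.3.3 (16 residual and 3.1 prior degrees of freedom), and conditions were compared as equal-weighted averages of their siRNA groups. Errors of differences are SEs of the model. Tables and figures used pandas 2.3.3 and matplotlib 3.10.9 in Python 3.11.15, and random blocks statmod 1.5.0. Named were the 8 factors, all measured genes of the naive, beta-catenin, exit and PRDM14 lists that bear on them, the 3 called genes with the largest absolute difference of each other list and comparison, the 2 nearest profiles of each factor that reached a log2 difference of 1, and Yap1 and Wwtr1. Otx2, Zic2, Cdx2, Elf5, Gata4, Sox17, Sox7 and Fn1 were named after their values were seen. The 8 factors, the lists and the tests were chosen with earlier results of these data known. Alternatives covered the probe set, cross-hybridising probe sets, dim genes, normalization, variance model, array weights, arrays in the fit, siRNAs, RNA quality, a replicate block, single arrays and a stricter call.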

Additional observations from a re-analysis of the deposited data

Results flagged for a closer look

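Nr5a2 gave the only array value that stood apart within a group of its own siRNA. In cells with YAP/TAZ mix 1 its lowest array, replicate C, read 10.46, a gap of 0.11 below the nearest of the other 3 arrays and 0.917 of the range of the group. Of 56 groups tested, 1 per gene and siRNA group of 4 or condition of 7 or 8, chance flags about 5%.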

How the results depend on the processing

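Without any 1 array, 8 of 8 factors were called higher in both comparisons with PD-only control, 6 to 7 were lower and 1 was higher with YAP/TAZ siRNA than in 2i, and 10121 to 10570, 10764 to 11381 and 8511 to 8797 genes were called in all. Requiring a log2 difference of at least 1 as well left 3 factors higher in 2i control, 3 with YAP/TAZ siRNA, and 0 higher and 0 lower between YAP/TAZ siRNA and 2i, with 1057, 1158 and 275 genes called in place of 10559, 11250 and 8791. Leaving out dim genes removed Gbx2, so 0 factors were higher than in 2i. Nr5a2 between YAP/TAZ siRNA and 2i turned to 0.01 with its probe sets averaged (adjusted p = 0.784), and to 0.097 and 0.082 on those with means of 8.21 and 4.22; it was called at -0.08 on its probe set of highest variance. The causes were not tested. Single values of the 8 factors were counted over all alternatives but single arrays and other probe sets, those of Nr5a2 and Gbx2 above included. They kept direction and side of the threshold in 360 cases, gained a call in 2, lost it in 2 and turned in 1. Many of these cases could not turn, so the tally is not a count of independent checks. A different variance model or leaving out dim genes keeps the log2 difference of a gene. The choice of probe set cannot alter Nanog, Prdm14, Nr0b1 or Gbx2, which had 1 each. On the other probe sets 20 values kept both, 1 gained a call, 10 lost it and 2 turned. No pairing by replicate letter was detected, and the labels do not say whether equal letters share a culture. Deviations of same-letter arrays correlated at -0.08 to 0.12 (median 0.00, 51 pairs), and those of different letters at -0.16 to 0.18 (median -0.002, 150 pairs). With the replicate block 8, 8, 6 lower and 1 higher factors and 10542, 11261 and 8714 genes were called, with no call of a factor changed. Dim signal limits Gbx2, whose fold may be compressed, by an amount that was not measured.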
